A study of Mus musculus with 2 samples.

Results

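The transcripts described here belong to 10 genes of the endoplasmic reticulum (ER) stress response and of its secretory regulators, taken by symbol from the 21849 genes that both libraries list. They are the ER chaperones Hspa5, Hsp90b1 and Calr, the transcription factors Xbp1, Creb3l1, Creb3l2, Atf4 and Ddit3, and the stress-induced genes Chac1 and Trib3. They were chosen by name and role, with earlier results of these data known, and all 10 passed the minimum of 10 CPM (counts scaled to a library total of 1000000) in either library, Trib3 through the primary library alone. Costal-cartilage-derived stem cells (CDSCs) are cells that lack CD45 and carry CD51, released with type II collagenase from the rib cartilage of newborn C57BL/6J mice of the CD45.1 or ZsGreen strain. In 1 library the cells were primary, sequenced without culture, and in the other they had been expanded in MEM with fetal bovine serum to passages 2 to 3. The comparison addressed how the transcriptome of CDSCs differs between fresh and expanded cells. Each value counts unique molecular identifiers (UMIs), each of which marks 1 captured transcript, over 11746 primary and 5338 cultured cells.

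Proteins destined for the extracellular matrix fold in the ER, where chaperones bind them until they reach their final shape. When unfolded proteins accumulate, the sensors IRE1, PERK and ATF6 respond. IRE1 splices the Xbp1 transcript, ATF6 is released from the membrane to induce chaperones, and PERK slows translation while it favours the translation of Atf4, upstream of Ddit3 (CHOP), Trib3 and Chac1. CREB3L1 (OASIS) and CREB3L2 (BBF2H7) are membrane-bound factors of the same kind, known from bone-forming cells and from chondrocytes, where CREB3L2 drives the transport of cartilage matrix proteins out of the ER. Counting at the 3' end measures transcript abundance alone and reads neither the splicing of Xbp1 nor the translation of Atf4 nor the cleavage of membrane-bound factors.

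The primary library held 137148874 UMIs in the kept cells, with a median of 10026.5 UMIs per cell, and the cultured library 330129909, with a median of 56864.5. Each group is 1 library, so no difference could be checked against replicates or tested, and every interval given is an exact 95% interval that covers counting error only. The labels name bone marrow as the tissue, while the primary cells carried Col2a1, the main cartilage collagen, at 53268.5 CPM and the cultured cells at 489.8 CPM. All 14 chondrocyte markers were over 2-fold lower in culture. The animals differed between the libraries, since ZsGreen had 60957 UMIs in primary and 0 in cultured cells and the Y-linked gene Uty had 0.0802 and 61.2 CPM. Culture, animal, sex and library therefore cannot be told apart. The libraries shared 15 barcodes among the kept cells.

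Chaperones and the Atf4 branch lay on opposite sides of equality. In the cultured library 3 of 10 members were at least 2-fold higher, namely Hsp90b1, Calr and Creb3l1, against 27.2% of the 9115 genes that reached 10 CPM in one library or both. Another 5 of 10 members, Atf4, Ddit3, Chac1, Trib3 and Creb3l2, were at least 2-fold lower, against 12.5% of those genes. The other members, Hspa5 and Xbp1, stayed within 2-fold. At 4-fold or more, 1 member was higher against 10.6% of all genes, and 3 were lower against 5.73%. The median log2 ratio of cultured over primary CPM was -0.95 over the members and 0.37 over all genes tested. That median of all genes was 0.16 after TMM scaling, which sets libraries to a common level by their trimmed mean ratio. This scaling lowers the ratio of every member by one common amount. The plot of member levels shows the chaperones to the right in culture and the Atf4 to Trib3 group to the left.

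**Figure D1:**
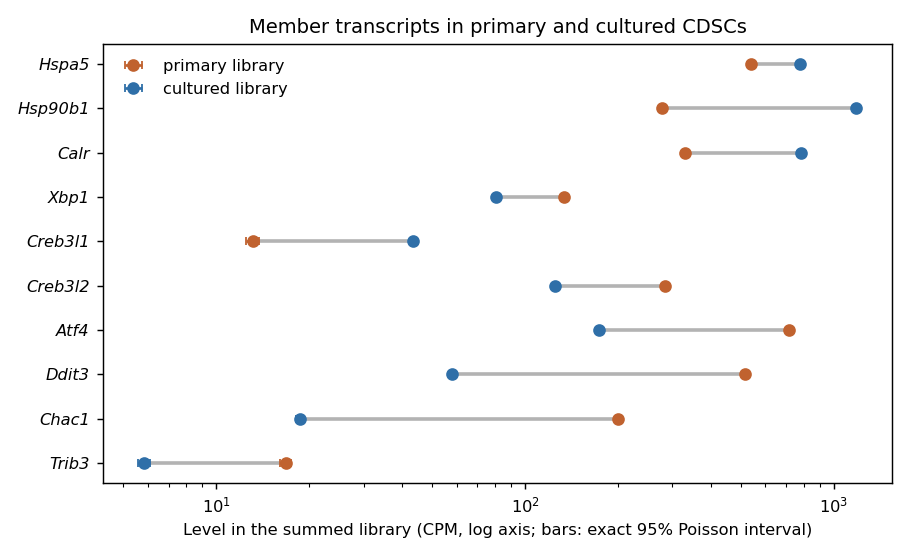
Level of each member in the summed primary (orange) and cultured (blue) library, in CPM on a log axis, with exact 95% Poisson intervals. Hsp90b1, Calr and Creb3l1 lie more than 2-fold to the right in culture, while Chac1 runs from 200 CPM in the primary to 18.6 CPM in the cultured library.

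The chaperones bind incoming chains in the ER lumen. Hspa5 encodes BiP, the Hsp70-type chaperone that also holds the stress sensors inactive. Hspa5 (ENSMUSG00000026864, GRCm38 chromosome 2, 34771970 to 34777547, plus strand) measured 537 CPM (534 to 541) in primary and 774 CPM (771 to 777) in cultured CDSCs. Its log2 ratio of 0.53 (0.52 to 0.54) exceeded that of 56.1% of the tested genes, so it lay near the middle of the transcriptome. Hsp90b1 encodes GRP94, the Hsp90-type chaperone of the ER. Hsp90b1 (ENSMUSG00000020048, chromosome 10, 86690209 to 86705509, minus strand) measured 277 CPM (274 to 280) in primary and 1181 CPM (1177 to 1185) in cultured CDSCs. The ratio was 4.27-fold, a log2 difference of 2.09 (2.08 to 2.11), higher than in 90.3% of tested genes. Calr encodes calreticulin, a calcium-binding lectin that retains glycoproteins until they fold. Calr (ENSMUSG00000003814, chromosome 8, 84841850 to 84846934, minus strand) was at 330 CPM (327 to 333) and 782 CPM (779 to 785), 2.37-fold higher in culture. The 3 chaperones thus differed in how far they were higher, with Hsp90b1 first and Hspa5 within 2-fold.

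Promoter sequence was printed for the members where the letters of a stress element were found, because it shows which of them share one. RefSeq promoters, 250 bases before to 50 bases after each start on GRCm38.p6, matched 9 of the 10 members. The ER stress element (ERSE), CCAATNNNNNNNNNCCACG, was searched on both strands and occurs in 39 of the 32851 promoters in the table, or 0.119%. It was found in the promoters of all 3 chaperones and of no other member searched. Creb3l1 had no promoter in the table and was not searched for any element. The capitals mark the element, read here on the strand of the gene, so that a site on the other strand appears as its reverse complement.
Hspa5, chr2:34772000-34772068, plus strand: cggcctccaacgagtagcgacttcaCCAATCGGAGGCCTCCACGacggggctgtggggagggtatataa
Hsp90b1, chr10:86705508-86705681, minus strand: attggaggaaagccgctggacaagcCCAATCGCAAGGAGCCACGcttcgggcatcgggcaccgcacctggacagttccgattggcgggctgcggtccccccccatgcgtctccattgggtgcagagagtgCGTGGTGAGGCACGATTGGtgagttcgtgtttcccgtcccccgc
Calr, chr8:84847050-84847118, minus strand: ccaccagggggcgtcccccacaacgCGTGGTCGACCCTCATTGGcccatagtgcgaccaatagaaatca

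The Hspa5 element spans bases -65 to -47 from the RefSeq start, and that of Calr bases -162 to -144. Hsp90b1 holds 2, at -212 to -194 and at -107 to -89. Of the 12 genes with this element that reached 10 CPM, 5 were at least 2-fold higher in culture and 0 lower, beside 27.2% and 12.5% of all genes tested, with a median log2 ratio of 0.78, and Hsp90b1 and Calr are among the 5. Those 12 include the 3 chaperones, and also Canx at 1.38, Creld2 at 1.07 and Pdia6 at 0.75, folding factors of the ER. Dnajc3, also of the ER, was at 0.59 and Syvn1, a ubiquitin ligase of ER-associated degradation, at -0.46. The rest are neither members nor genes of the pathway lists below. They are Zfp57 at 1.26, which is among the 5, Hnrnpa3 at 0.80, Adcy3 at 0.17 and Spats2l at -0.33. The second ER stress element, ATTGGNCCACG, occurs in 0.0365% of promoters, the UPR element TGACGTGG in 0.676% and the cyclic AMP element TGACGTCA in 1.79%. None of the 9 member promoters held these letters. A match describes the sequence and was not measured as a binding site.

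Among the factors of the IRE1 and CREB3 branches, Xbp1 and Creb3l2 were lower in culture and Creb3l1 was higher. Xbp1 (ENSMUSG00000020484, chromosome 11, 5520659 to 5525893, plus strand) measured 133 CPM (132 to 135) in primary and 80.5 CPM (79.6 to 81.5) in cultured CDSCs. Its log2 ratio was -0.73 (-0.76 to -0.70), and 16.4% of tested genes had a lower one. Creb3l2 (ENSMUSG00000038648, chromosome 6, 37327255 to 37442146, minus strand) was at 284 CPM (281 to 286) and 125 CPM (124 to 127), 2.26-fold lower in culture. Creb3l1 (ENSMUSG00000027230, chromosome 2, 91982328 to 92024502, minus strand) ran the other way, at 13.1 CPM (12.5 to 13.7) and 43.2 CPM (42.5 to 44.0). It was 3.30-fold higher in culture, with a log2 ratio of 1.72 (1.65 to 1.80). The paralogous pair therefore lay on opposite sides, with the chondrocyte-associated Creb3l2 higher in primary and the bone-associated Creb3l1 higher in cultured cells.

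The branch of Atf4 held the members furthest from equality. Atf4 encodes the transcription factor of the integrated stress response. Atf4 (ENSMUSG00000042406, chromosome 15, 80255184 to 80257541, plus strand) measured 715 CPM (711 to 720) in primary and 174 CPM (172 to 175) in cultured CDSCs, 4.12-fold lower in culture. Ddit3 encodes CHOP, which is induced in lasting stress and linked to cell death. Ddit3 (ENSMUSG00000025408, chromosome 10, 127290774 to 127296288, plus strand) was at 517 CPM (514 to 521) and 57.8 CPM (56.9 to 58.6), 8.96-fold lower in culture. A second row of the files, ENSMUSG00000116429, also bears this symbol, lies within the first on the same strand (127290829 to 127293753) and had 0 UMIs in both libraries, which at a limit of 3 counts allows up to 0.0219 CPM in primary and 0.00909 CPM in cultured cells. How reads of their common part were assigned is uncertain, so the value is that of the first row.

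Chac1 encodes an enzyme that breaks down glutathione, and Trib3 a pseudokinase that dampens the response. Chac1 (ENSMUSG00000027313, chromosome 2, 119351229 to 119354381, plus strand) measured 200 CPM (197 to 202) in primary and 18.6 CPM (18.2 to 19.1) in cultured CDSCs. At 10.7-fold lower in culture, with a log2 ratio of -3.42 (-3.46 to -3.38), it was the most reduced member, and 2.91% of tested genes had a lower ratio. Trib3 (ENSMUSG00000032715, chromosome 2, 152337422 to 152344032, minus strand) was at 16.8 CPM (16.1 to 17.5) and 5.85 CPM (5.59 to 6.12), 2.87-fold lower. A C/EBP-ATF response element, TGATGNAA, was searched on both strands and occurs in 3.97% of promoters. It was found in the promoter of Chac1, at -193 to -186, and after the start of Trib3, at 14 to 21. The Chac1 window is shown because Chac1 was the most reduced member, with the element in capitals as its reverse complement.
Chac1, chr2:119351024-119351081, plus strand: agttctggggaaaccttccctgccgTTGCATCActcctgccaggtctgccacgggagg

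Of the 187 genes with this element that reached 10 CPM, 24.1% were higher by 2-fold or more in culture and 18.2% were lower. Of all genes tested, 27.2% were higher and 12.5% lower. Most carriers thus did not share the ratio of Chac1. The scaling to CPM matters for the direction of several members, because the cultured cells yielded more UMIs each. Per cell, Ddit3 had 6.04 UMIs in primary and 3.57 in cultured cells, and Chac1 had 2.33 and 1.15, so these 2 genes were lower even as counted. Atf4 had 8.35 and 10.7 UMIs per cell, and Hsp90b1 had 3.23 and 73.0. On this unscaled measure the other 8 members were higher in the deeper cultured cells.

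Immediate early genes, which cells switch on quickly after many kinds of stimulus, were lower in culture along with the Atf4 branch. All 11 had log2 ratios below 0, and 8 of them were at least 2-fold lower in culture, and their levels summed to 18446.5 CPM in primary and 2623 CPM in cultured cells. Fos was at 5378 and 308 CPM. Of 11 cytosolic heat shock genes, 4 were at least 2-fold lower and 1 at least 2-fold higher, with Hspa1a at 276 and 3.41 CPM and a summed level of 3889 and 3321 CPM. None of these genes was at 0 in either library, and their part in the result was not tested. Dividing cells also differed, with 9 of 9 G2M phase genes at least 2-fold higher in culture and a summed level of 90.7 and 519 CPM. The counts in this paragraph stand beside 27.2% of all genes tested that were higher and 12.5% that were lower.

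The rest of the stress response and of the secretory pathway was read from 9 lists with 131 genes, of which 127 reached 10 CPM. Some lists are not secretory, namely those of translation control, ATF4 stress targets, serine, one-carbon and proline synthesis and tRNA synthetases. In culture 28 of the 127 (22.05%) were at least 2-fold higher and 19 (14.96%) lower, beside 27.2% and 12.5% of all genes tested. Their median log2 ratio was 0.11, beside 0.37 over all genes tested. After TMM scaling the counts were 20 and 26, beside 21.88% and 15.53% of all genes tested. The balance of the lists as a whole thus depended on the scaling, and the shares of all genes moved the same way. It also hid differences between lists. Before TMM scaling the share lower ran from 4.76% in ER chaperones and folding enzymes to 37.5% in ATF4 stress targets. The counts of each list below are likewise to be read beside 27.2% and 12.5%. The plot of the lists shows their spread around the median of all genes.

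**Figure D2:**
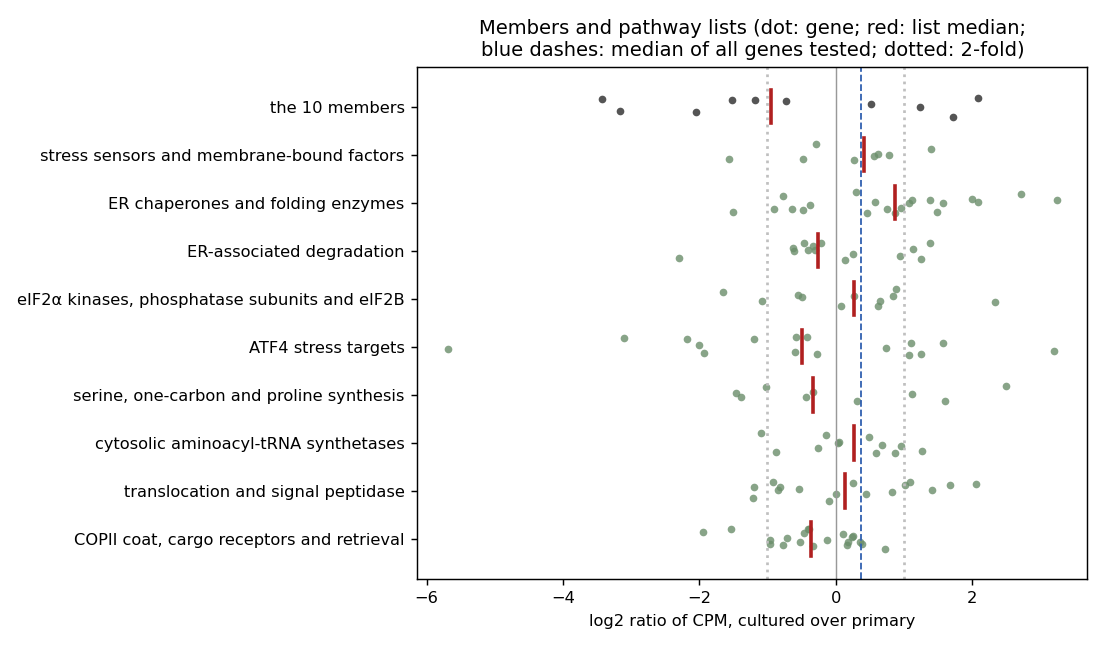
Log2 ratio of CPM, cultured over primary, of the members and of each tested gene of 9 pathway lists (dots), with list medians (red), the median of all genes tested (blue dashes) and 2-fold limits (dotted). ER chaperones have the highest list median, 0.87, while the list of ATF4 stress targets spans -5.69 to 3.20.

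Of 21 other ER chaperones and folding enzymes, 15 had log2 ratios above 0, like the chaperone members, but 11 stayed within 2-fold. At 2-fold or more, 9 (42.9%) were higher in culture and 1 (4.76%) lower, with a median log2 ratio of 0.87. Ppib, Serpinh1 and P4hb, named for being the most abundant in primary cells, were lower in culture. They were at 1219 and 781, 1183 and 693, and 566 and 408 CPM. The summed level of the list was 4817 CPM in primary and 5305 CPM in cultured cells. Sdf2l1, a cofactor of BiP, went from 5.48 to 52.0 CPM and Hyou1, an ER chaperone that exchanges the nucleotide of BiP, from 4.80 to 31.8 CPM. The lowest were Dnajb9, an ER-resident J protein, at 109 and 38.4 CPM, and Fkbp14, a prolyl isomerase for collagen, with a log2 ratio of -0.90. Known BiP partners therefore stood on both sides. Among 14 genes of ER-associated degradation 3 were higher and 1 lower at 2-fold, with Edem2 at 1.39 and Derl2 at 1.26. Herpud1, a stress-induced part of the degradation complex, went the way of Atf4 from 339 to 69.0 CPM, and Edem3 was at -0.62.

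Of 8 stress sensors and membrane-bound factors, 1 was at least 2-fold higher and 1 lower. Nfe2l1, which responds to proteasome load, had a log2 ratio of 1.40 and the protease Mbtps1, which cleaves ATF6, one of 0.78. Ern1, encoding IRE1, was at -0.48. The gene of PERK itself, Eif2ak3, measured 61.1 CPM in primary and 20.7 CPM in cultured CDSCs, a log2 ratio of -1.56. Of 11 genes for eIF2α, its kinases and phosphatase subunits and for eIF2B, 1 was higher and 2 lower. Eif2ak2, the kinase that senses double-stranded RNA, was at 2.34 and Eif2s1, eIF2α itself, at 0.88. The phosphatase subunit Ppp1r15a, encoding GADD34, went from 215 to 68.6 CPM and its paralogue Ppp1r15b was at -1.08.

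Targets of ATF4 did not share 1 direction. Among 16 stress targets 5 were at least 2-fold higher and 6 lower, with a median log2 ratio of -0.50. Atf3, which belongs to the immediate early list too, went from 1190 to 23.0 CPM, and the glutamine transporter Slc1a5 had a log2 ratio of -3.10. Gdf15, a secreted stress cytokine, was at 3.20 and Vldlr, a lipoprotein receptor, at 1.58. In the 9 genes of serine, one-carbon and proline synthesis, 3 were higher and 3 lower. The serine synthesis genes Psat1 and Phgdh had log2 ratios of 2.50 and 1.60, while Aldh1l2, a mitochondrial folate enzyme, and Pycr1, a proline synthesis enzyme, were at -1.46 and -1.39. Of 12 cytosolic aminoacyl-tRNA synthetase genes 1 was higher and 1 lower, with Wars1 at 1.27, Lars at 0.95, Cars at -0.87 and Yars at -1.10.

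Entry into the ER and exit from it were read from separate lists. Among 16 genes of translocation and signal peptidase 5 were at least 2-fold higher and 2 lower, led by Spcs3 at 2.07 and Srp14 at 1.67, with Ssr2 at -1.20 and Srpr at -1.21 at the other end. COPII is the coat of vesicles that leave the ER, and BBF2H7 is known to regulate its subunits Sec23a and Sec24d in cartilage. Of the 20 genes of this coat, its cargo receptors and retrieval, 0 were at least 2-fold higher and 2 lower, with a median log2 ratio of -0.36. Sec24a and Kdelr3 had the lowest ratios, -1.95 and -1.54, and Sec24b and Surf4 the highest, 0.72 and 0.38. Sec23a was at -0.33 and Sec24d at -0.47, given here for their link to Creb3l2 and picked outside the rule for naming genes.

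Single cells were compared at a common depth of 5000 UMIs, drawn at random from each cell, in 10959 primary and 4543 cultured cells, and the 787 and 795 shallower cells were dropped. Ddit3 had a UMI in 77.8% of primary cells (77.0 to 78.6) but in 21.8% of cultured cells (20.6 to 23.0), and unthinned in 86.9% and 73.7%. Atf4 had one in 93.9% and 55.9%, unthinned in 96.6% and 87.2%. Chac1 had one in 42.6% and 7.62%, unthinned in 54.7% and 44.5%. The lower level of these genes in culture thus appeared as a lower share of cells too. At equal depth this share follows largely from the mean level, so it is not separate support. Trib3 was found in 7.24% and 3.04% of cells at equal depth, and in 14.8% and 23.9% unthinned, where the order turns with the deeper cultured cells. No cell type of these libraries is known to lack these genes, so no background share from free RNA could be set beside them.

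Chaperones were found in most cells of both libraries. Hspa5 had a UMI in 89.1% of primary and 91.2% of cultured cells at equal depth (96.0% and 96.5% unthinned), Hsp90b1 in 70.8% and 96.3% (86.7% and 96.4%) and Calr in 75.4% and 93.3% (88.5% and 96.6%). Atf4, Ddit3 and Creb3l2 were about as widespread as the chaperones in primary cells, while Xbp1 and Creb3l1 were found less widely. Creb3l1 had one in 5.49% and 19.1% of cells (11.9% and 70.9% unthinned), Creb3l2 in 69.1% and 44.4% (83.8% and 83.2%), and Xbp1 in 47.2% and 30.1% (69.6% and 79.3%). For Xbp1, too, the order of the libraries turned without thinning. The plot of UMIs per cell gives the whole distributions.

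**Figure D3:**
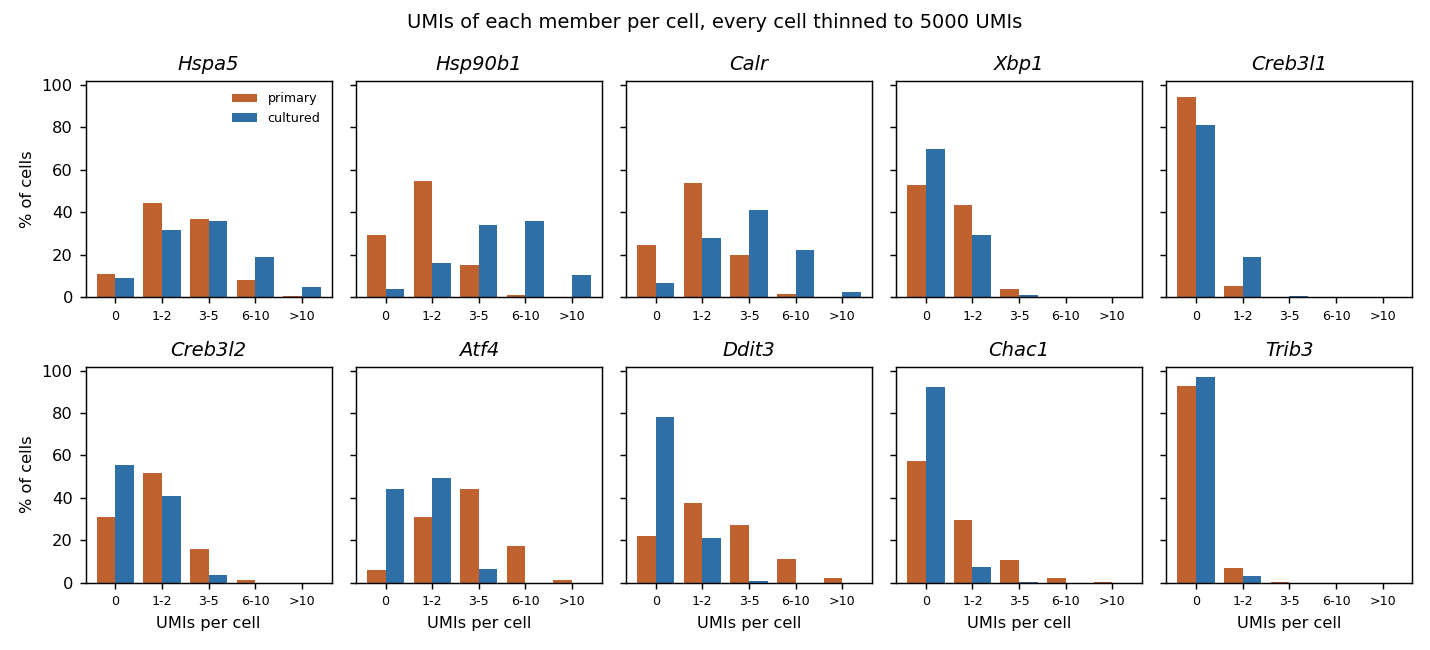
Share of cells (%) by the number of UMIs of each member per cell, every cell thinned to 5000 UMIs, for 10959 primary (orange) and 4543 cultured (blue) cells. Ddit3 had 0 UMIs in 22.2% of primary and 78.2% of cultured cells, and Hsp90b1 moves towards higher classes in culture.

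The spread between cells also differed by gene. The variance of the UMIs of Ddit3 over its mean, which is 1 for pure counting noise, was 2.89 in primary and 1.36 in cultured cells, and that of Chac1 was 2.63 and 1.15. The means were 2.65 and 0.273 UMIs for Ddit3 and 0.951 and 0.0850 for Chac1. At a given relative spread, variance over mean rises with the mean, so it does not compare relative spread between the libraries. For Atf4 it was 1.61 and 1.11, although its mean in primary cells, 3.57 UMIs, was the highest of the 10 at this depth. For Hsp90b1 it was 1.74 and 2.59. For Hspa5 it was 3.19 and 3.12, but the primary value rested on 6 cells with at least 30 UMIs of Hspa5, a limit chosen after seeing the data, and without such cells it was 1.57 and 2.84. In the primary library 11.3% of cells had 6 to 10 UMIs of Ddit3 and 2.00% had over 10. In the cultured library 0 cells had 6 to 10 and 1 of 4543 had over 10. At this depth high counts of Ddit3 were thus nearly restricted to primary cells, where the mean was higher. Unthinned, the highest count was 153 UMIs in a cultured cell of 148763 UMIs and 86 in a primary cell of 48472.

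To see where in each library the members were expressed, cells were clustered within a library with the members and the pathway lists left out. The primary library gave 9 clusters and the cultured library 10, of which 8 had at least 100 cells. Primary clusters 1 to 6 and 9 were chondrocyte-like by their abundant cartilage transcripts, cluster 8 (187 cells) held dividing chondrocyte-like cells, and cluster 7 (289 cells) was left unnamed since mast cell genes such as Tpsb2 and Cma1 led it together with Col1a1 and Postn. Cluster 7 also had 9 chondrocyte markers over 1000 CPM, beside 11 to 13 in clusters 1 to 6 and 9. Abundant cartilage transcripts thus do not set the chondrocyte-like clusters apart within this library. No cultured cluster was chondrocyte-like. Chac1, Creb3l1, Ddit3, Trib3 and Atf4 ranged more widely among primary than among cultured clusters of at least 100 cells, at resolution 0.5, shown in the cluster map, and at the finer resolution 1. Hspa5 and Creb3l2 did the opposite at both, but clusters of low depth or low mitochondrial share set part of these cultured ranges. For Hspa5 the lowest cultured cluster at 0.5 was cluster 2, with a median of 1276.5 UMIs, at 462 CPM, followed by cluster 4 at 657 CPM. At 1 its highest was a cluster with a median of 1179 UMIs, at 1392 CPM. Cluster 2 was also the lowest at 0.5 for Creb3l2 and Hsp90b1. Its median mitochondrial share was 0.34%, beside 2.00% to 2.72% in the other cultured clusters of at least 100 cells. At 1 Creb3l2 was lowest, at 63.5 CPM, in a cluster with a median of 31906 UMIs and a mitochondrial share of 0.12%. Ranges without these clusters were not computed. Calr and Hsp90b1 depended on the resolution, with ranges of 2.07-fold in primary and 1.43-fold in cultured clusters for Calr at 0.5 but 2.19-fold and 2.24-fold at 1, and for Hsp90b1 2.07-fold and 2.19-fold at 0.5 but 2.21-fold and 1.84-fold at 1.

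**Figure D4:**
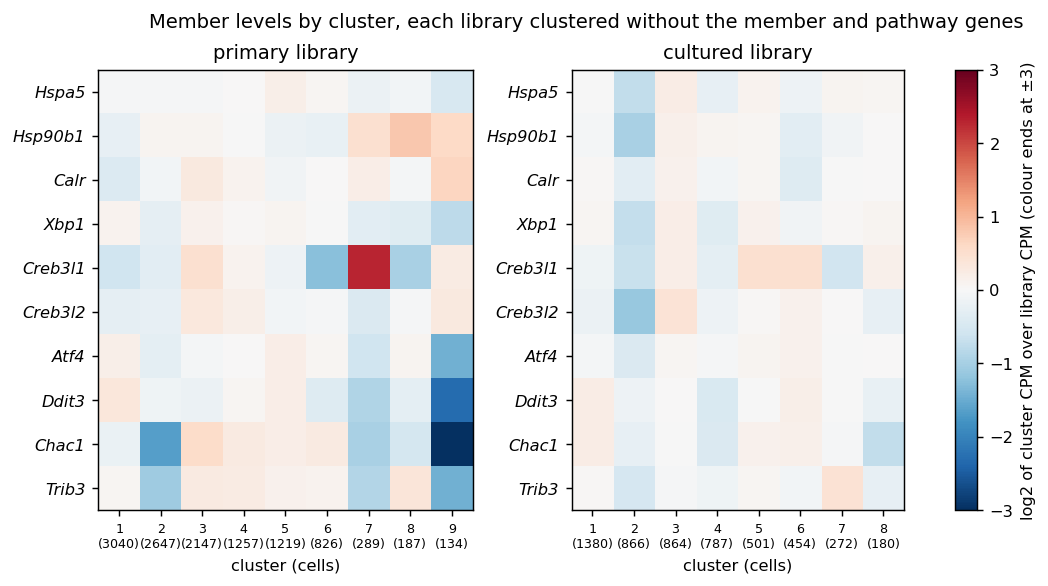
Level of each member in each cluster of at least 100 cells (columns, cells in brackets) relative to its level in the whole library, as log2 of the CPM ratio, for the primary and the cultured library. In the primary library Chac1 and Ddit3 are lowest in cluster 9 and Creb3l1 is highest in cluster 7, at 63.7 CPM, while no cultured cluster differs as much from its library.

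Chac1 varied the most among primary clusters. It was at 294 CPM (288 to 301) in cluster 3, led by Acta2 and Grem1, at 63.8 CPM (60.7 to 67.1) in cluster 2, led by Clu and Prg4, and at 6.20 CPM (2.28 to 13.5) in cluster 9, a range of 47.5-fold. Clusters 6, 4 and 5 lay between at 241, 240 and 229 CPM with overlapping intervals. Ddit3 ranged from 652 CPM (643 to 662) in cluster 1, led by Cytl1, to 104 CPM (85.0 to 127) in cluster 9, and Atf4 from 824 CPM in cluster 5 to 262 CPM in cluster 9. The order of the clusters was not the same for these genes, since Chac1 was highest in a cluster where Ddit3, at 455 CPM, was only the fifth. Trib3 was at 7.96 CPM in cluster 2 and between 17.6 and 21.6 CPM in clusters 1, 3, 4, 5, 6 and 8, whose neighbouring intervals overlap. Cluster 9 (134 cells) also had the lowest Fos, 1397 CPM against 6942 CPM in cluster 1, and a median mitochondrial share of 3.40% against 1.59% to 2.00% in the other clusters. Cluster 2 had the highest Hspa1a, 803 CPM against 32.4 CPM in cluster 3. The part of these in the result was not tested.

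Creb3l1 ranged 11.7-fold among primary clusters. It was at 63.7 CPM (54.4 to 74.2) in the unnamed cluster 7 and between 5.45 and 18.2 CPM elsewhere. Hsp90b1 was highest in the dividing cluster 8, 487 CPM (464 to 511), and lowest in cluster 1, 235 CPM (230 to 241). Calr was highest in cluster 9, 512 CPM, and lowest in cluster 1, 247 CPM. Creb3l2 ranged from 352 CPM in cluster 3 to 209 CPM in cluster 7, Hspa5 from 602 CPM in cluster 5 to 387 CPM in cluster 9, and Xbp1 from 145 CPM in cluster 3 to 77.5 CPM in cluster 9. These were ranges of 1.55-fold to 2.07-fold for the 5 genes other than Creb3l1, with clusters 1, 2 and 3 not apart beyond their intervals for Hspa5.

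In the cultured library the ratio of highest to lowest cluster was between 1.43-fold for Calr and 2.92-fold for Creb3l2. Creb3l2 was at 166 CPM (163 to 169) in cluster 3, led by Ccbe1 and Hmcn1, and at 56.9 CPM (50.6 to 63.8) in cluster 2. Of the 866 cells of cluster 2, 738 had under 5000 UMIs, while the other 128 gave 79.1% of its UMIs, and Creb3l2 was at 106 CPM in the former and 44.0 CPM in the latter. Creb3l1 was at 60.7 CPM in cluster 6, which carries Mmp13 and Comp, and at 60.3 CPM in cluster 5, with overlapping intervals, and at 29.1 CPM in cluster 7. Chac1 stayed between 11.2 and 21.8 CPM, and Ddit3 between 41.9 and 66.9 CPM. Every cultured cluster of at least 100 cells was thus below all primary clusters but cluster 9 for Chac1, and below every primary cluster for Ddit3. Without cluster 7 of the primary library and the shallow and haematopoietic-like clusters of the cultured library, the same 3 and 5 members passed 2-fold.

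The members were last compared cell by cell. Pearson correlations of log(1 + UMIs) were taken over the thinned cells of each library, which share a library, a preparation and a depth, and they are given as a description. In cultured cells the chaperones formed a set, with 0.39 between Hspa5 and Hsp90b1, 0.37 between Hsp90b1 and Calr and 0.29 between Hspa5 and Calr. In primary cells the same pairs were at 0.08, 0.11 and 0.07. The highest pair there was Atf4 and Ddit3 at 0.19, followed by Atf4 and Chac1 at 0.15 and Ddit3 and Chac1 at 0.12, and these pairs were at 0.04, 0.03 and 0.05 in cultured cells. Counts of the last genes were sparse in culture, so a low value there is no finding. Chaperone counts were lower in primary cells, with means of 1.37 against 5.75 UMIs for Hsp90b1 and 1.58 against 3.95 for Calr. Counting noise lowers a correlation more at lower counts, so their difference between libraries is no finding either. The thinned cultured cells also held the 128 deeper cells of cluster 2, low in all 3 chaperones, whose part was not tested. Creb3l1 and Creb3l2 were at 0.00 in both libraries.

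**Figure D5:**
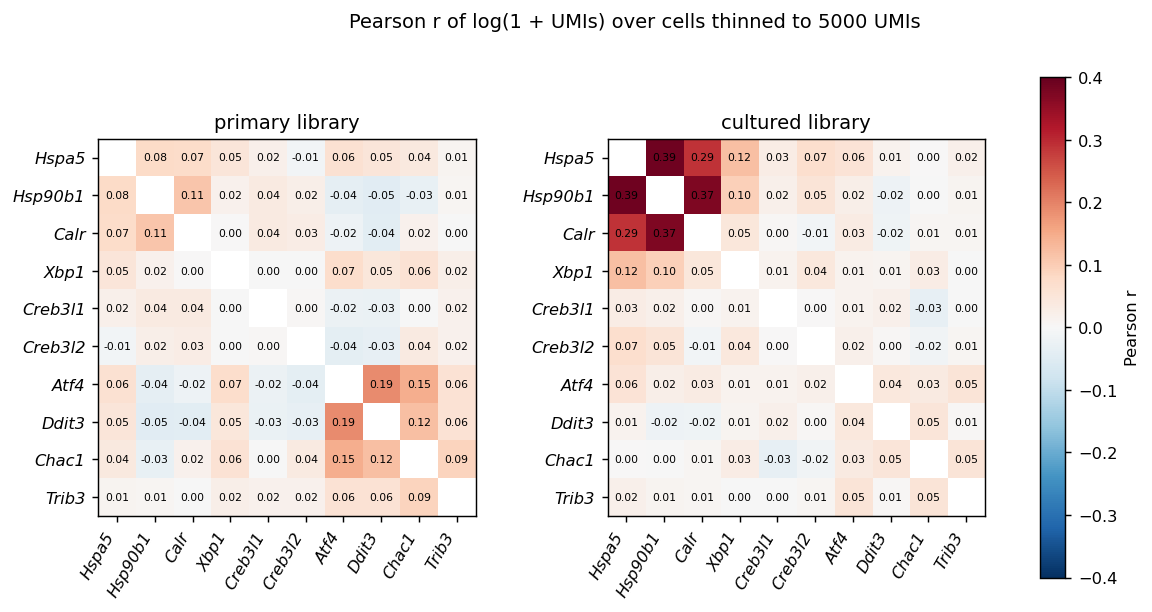
Pearson correlation of log(1 + UMIs) between members over 10959 primary and 4543 cultured cells thinned to 5000 UMIs. The chaperone block, 0.29 to 0.39, stands out in the cultured library and the Atf4, Ddit3 and Chac1 block, 0.12 to 0.19, in the primary library.

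Among the genes with a mean of at least 0.2 UMI, 3564 in primary and 4172 in cultured cells, the genes most like Ddit3 in primary cells were the immediate early genes Junb and Ier2, both at 0.25, and Nr4a1 at 0.23. Those most like Atf4 were Actg1 at 0.24, Junb at 0.22 and Ier2 at 0.21. Chac1 was nearest to Actg1 and Col2a1, both at 0.24, and Scrg1 at 0.23. Creb3l2 was nearest to Xylt1 at 0.15, the cartilage matrix gene Acan at 0.14 and Papss2 at 0.14. In cultured cells Pdia6, a disulfide isomerase of the ER, came within the first 3 for each chaperone, at 0.32 for Hspa5, 0.37 for Hsp90b1 and 0.30 for Calr. Creb3l2 was there nearest to Pcdh7, Fndc3b and Ltbp1, at 0.15 to 0.16, and Creb3l1 to Thbs1 at 0.11. For the other members with enough UMIs no gene exceeded 0.15.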

How the data were processed

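The authors deposited raw UMI counts per gene and barcode, made with 10x 3' v3.1 chemistry and Cell Ranger 7.0.0 on GRCm38, per the submitters' processing notes, which also list GRCm39. The gene release was not given in the sources used here, and the study's own cell filter gave no thresholds. A barcode was kept with 500 or more genes, 1000 or more UMIs and a mitochondrial share of up to 10%, which removed 150 of 11896 primary and 5460 of 10798 cultured barcodes. Groups came from the treatment labels. For each library the counts of kept cells were added up and divided by their total to give CPM, with exact Poisson, binomial (Clopper-Pearson) and conditional intervals. A ratio used counts of at least 3. Scrublet in scanpy 1.11.5 called 0 doublets and had not worked, so doublets were kept, and the 1118 and 461 cells of highest score were left out as an alternative. Clusters were made with leidenalg 0.10.2 at resolution 0.5 on 20 neighbours in 10 components of 2000 variable genes. A cluster was named from at least 3 markers of a class over 4-fold and 50 CPM, and as chondrocyte-like from chondrocyte markers over 1000 CPM. TMM factors came from edgeR 4.0.16. Genes were named as all members, the 2 highest and 2 lowest of each list and the 3 nearest by correlation. Members, lists and rules were chosen with earlier results of these data known. Coordinates are from GENCODE M21 by identifier. The code was tested on simulated data.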

Additional observations from a re-analysis of the deposited data

How the results depend on the processing

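Over 11 settings of scaling, cell filter, doublets, clusters and thinning, the members at least 2-fold higher and lower in culture stayed at 3 and 5, and no member turned direction. Log2 ratios ranged from 0.31 to 0.69 for Hspa5, 1.88 to 2.12 for Hsp90b1, 1.03 to 1.47 for Calr, 1.51 to 1.85 for Creb3l1, -0.94 to -0.69 for Xbp1, -1.39 to -1.11 for Creb3l2, -2.26 to -1.94 for Atf4, -3.38 to -3.07 for Ddit3, -3.64 to -3.30 for Chac1 and -1.73 to -1.40 for Trib3. The setting without the unnamed primary, the mostly shallow cultured and the haematopoietic-like clusters was chosen after seeing the data. Of all genes past 2-fold, 68.5% were higher, 58.5% with TMM scaling and 57.6% with totals that leave out the 50 most abundant genes. The 2482 genes higher and 1143 lower at 10 CPM became 3716 higher and 1936 lower at 1 CPM, and 4594 and 3628 with no minimum beyond 3 counts, since more genes were then tested. No paired analysis was possible because each group is 1 library and the labels give no replicate numbers. Leaving out a replicate was not possible either. Depth did not limit the summed levels, and differences between animals could not be estimated.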

Other observations

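A few cells carried far more Hspa5 than the rest. The limit of 30 UMIs at 5000 UMIs per cell was chosen after the values were seen. In the primary library 6 of 10959 cells (0.0547%) passed it, with 32 to 193 UMIs of Hspa5 against a mean of 2.63 in the other cells. They also had 10 to 54 UMIs of Hsp90b1, 3 to 36 of Manf, a secreted ER stress protein, and 1 to 6 of Sdf2l1, whose mean in the other cells was 0.0252. Herpud1 reached 24 UMIs and Trib3 reached 10 in single cells of the 6, while Ddit3 had 1 to 9 and Atf4 2 to 13. Col2a1 had 7 to 30 UMIs in these cells and a mean of 254 in the others. In the cultured library 3 of 4543 cells passed, with 34 to 57 UMIs of Hspa5, 28 to 48 of Hsp90b1 and 12 to 30 of Calr. Ddit3, Chac1, Trib3 and Sdf2l1 had 0 UMIs in all 3.

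Hspa5 and Calr were higher in shallow than in deep kept cultured cells, and so were Atf4, Ddit3 and Xbp1. Under 5000 UMIs Atf4 was at 245 CPM, Ddit3 at 82.3 CPM and Xbp1 at 101 CPM, on 298, 100 and 123 UMIs. By deeper depth class they were at 145 to 179, 56.3 to 67.1 and 58.0 to 81.2 CPM. Chac1, Creb3l2 and Trib3 lay within the range of their deeper classes. In the 795 kept cultured cells with under 5000 UMIs, Hspa5 was at 1299 CPM, Calr at 1298 CPM and Hsp90b1 at 1252 CPM. Most of them, 738, lay in cultured cluster 2, whose other 128 cells stood at the opposite end, with Hspa5 at 229 CPM, Calr at 460 CPM and Hsp90b1 at 416 CPM. Over all deeper cultured cells, by depth class, Hspa5 was between 593 and 833 CPM and Calr between 739 and 814 CPM, while Hsp90b1, between 695 and 1190 CPM, came close to its level in the shallow cells in the deepest class of 2959 cells, which had 1190 CPM. The 5460 cultured barcodes that failed the filter, with 6298068 UMIs in all, had Hspa5 at 1220 CPM, Hsp90b1 at 1164 CPM and Calr at 929 CPM, while Atf4 was at 194 CPM, Ddit3 at 67.6 CPM and Chac1 at 16.0 CPM. In the primary library Hspa5 was between 523 and 553 CPM in the depth classes up to 50000 UMIs, and Chac1 was at 58.9 CPM in cells under 5000 UMIs and between 153 and 230 CPM in deeper cells.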
